A study of Rattus norvegicus with 10 samples.

Results

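The acetyl-lysine system was followed through 39 genes: 13 lysine acetyltransferases and coactivators, 16 bromodomain proteins, the 7 sirtuins and 3 ING proteins. Their transcripts were measured by RNA-seq in left hippocampi of 10 male rats of the TgF344-AD strain at 11 months of age. The genes were listed by function and matched by symbol. Of the 39, 33 have a row among the 17168 genes of the deposited tables, and all 33 passed the filter on low counts. Ep300, Kat2b, Kat6b, Ncoa3, Bptf and Sirt1 were not analysed here. The list is broader than acetylation alone, since ING proteins read methylated histone tails as subunits of either acetyltransferase or deacetylase complexes.

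The TgF344-AD strain (genotype Tg-AD in the labels) models Alzheimer's disease and is known to carry its transgenes under a mouse prion promoter, and every rat in the comparison carries them. Per the labels, 5 untreated rats ate plain rodent chow. The other 5 ate the chow with 750 mg RG2833 per kg, from 5 months of age for 6 months. RG2833 inhibits HDAC1 and HDAC3, zinc-dependent enzymes that deacetylate histones. One sentence of the design text names ibudilast as the drug, while the sample labels and the title name RG2833. Each library is 1 rat. No group without the transgenes enters the comparison, and females are not part of it.

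Acetyltransferases, the writers, move an acetyl group from acetyl-CoA to lysines of histones and other proteins, and deacetylases remove the group. Most bromodomain proteins bind the acetylated lysine. Sirtuins form the NAD-dependent branch of the deacetylases and are not inhibited through the zinc chemistry by which HDAC1 and HDAC3 inhibitors act. In the hippocampus, CREB-binding protein and its relatives are known for their part in activity-dependent transcription and long-term memory. The comparison asks whether transcripts of the writers, the readers and the second deacetylase branch differed after 6 months on an inhibitor of the other branch.

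Total counts ran from 15118203 to 18533520 per library. Markers of hippocampal neurons and glia were present. Over all 12 marker lists, 60 of 62 markers with a row passed the filter. These lists also cover endothelium, choroid plexus, red blood cells, thalamus and striatum. The 2 markers that did not pass were Iyd, of the CA3 and CA2 list, and Alas2, of the red blood cell list. Choroid plexus RNA stood apart in untreated replicate 2 and RG2833 replicate 1, where the 8 markers summed to 7815 and 9130 CPM (a gene's counts scaled by the TMM-adjusted library size), against 8.92 to 275.3 CPM in the other 8 libraries. Ribosomal RNA (Rn45s and Rn28s) took from 4.07% to 11.41% of the counts, with group means of 6.83% ± 3.01 in untreated and 7.50% ± 2.07 in RG2833 rats (SD, n = 5 each; two-sided exact permutation p = 0.683). In whole tissue, fewer cells of a type and less RNA per cell cannot be told apart.

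No member passed the comparison of RG2833 with untreated rats. With edgeR's quasi-likelihood test, 0 of the 33 members had an adjusted p under 0.05, where 0 of 12161 genes did (0%), and the smallest adjusted p among members was 0.841. DESeq2 also called 0 members. At an unadjusted p under 0.05 there were 2 members, Ing2 and Kat2a (6.06%), against 5.66% of all genes tested, and both were lower in RG2833 rats, a direction in which 2.71% of all genes stood at that p, while 2.94% stood higher. Leaving out untreated replicate 3 raised the count of 2 to 5, and leaving out RG2833 replicate 5 lowered it to 0. The share of all genes at that p moved the same way, being 14.2% in the first of these cases and 3.47% in the second. The count was 1 when untreated replicate 1, untreated replicate 5 or RG2833 replicate 4 was left out (3.03% of members each time), where all genes stood at 5.21%, 4.62% and 3.07%. Of the 33 members 20 were lower and 13 higher, with a median log2 fold change of -0.015, where 53.5% of all genes were lower with a median of -0.011. The members' count is thus near that of the table as a whole. Among cell type markers, all 6 neuronal and all 3 dentate granule markers tested had lower means in RG2833 rats and all 6 astrocyte markers had higher ones. The 3 markers of CA1 pyramidal cells, a neuron class of the hippocampus, also had higher means, and of 4 CA3 and CA2 markers 1 was higher and 3 lower. None of these markers passed at an adjusted p under 0.05. Their part in the members' values was not tested.

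The estimates were narrow for most of the members. The 95% interval of the fold change lay inside 1.25-fold in both directions for 25 of 33 members, including all 9 acetyltransferases tested, and inside 1.5-fold for 32 of 33. The remaining member was Baz1a, which had 57 to 134 counts per library. The interval stayed inside 1.25-fold for 10 of 15 bromodomain genes, 4 of 6 sirtuins and 2 of 3 ING genes. Over all genes tested this share was 41.9%, and interval width depends on counts as well as on spread between rats.

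**Figure D1:**
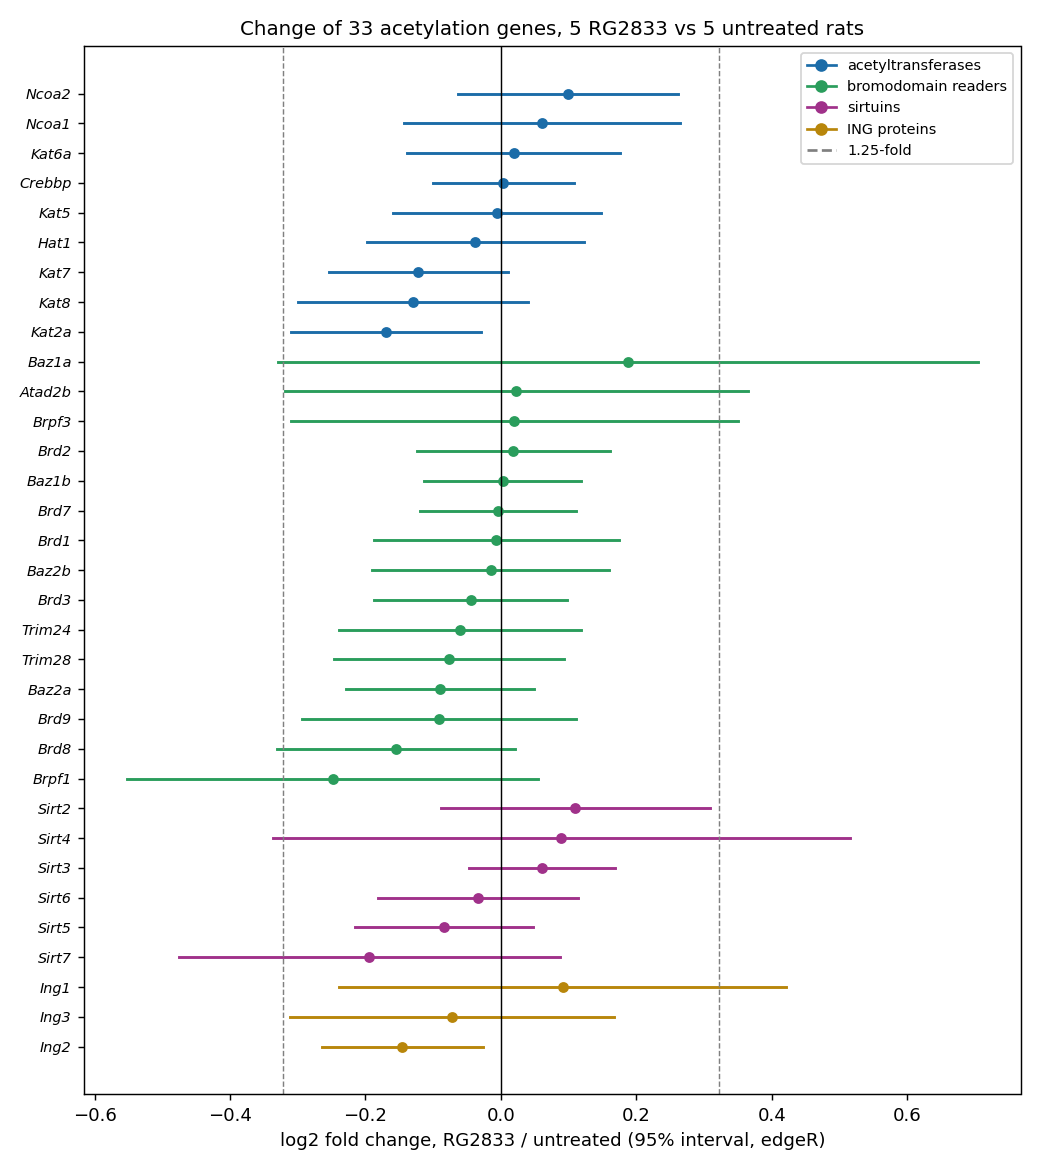
Log2 fold change of RG2833 over untreated rats (x axis) for each of the 33 members (y axis), ordered within roles; points are edgeR estimates, lines 95% intervals and dashed lines 1.25-fold. Every point lies between -0.25 (Brpf1) and 0.19 (Baz1a), and the interval excludes 0 for Ing2 and Kat2a alone, before adjustment over all genes.

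Among the acetyltransferases, 4 of the 9 tested had higher and 5 lower means in RG2833 rats. Crebbp encodes CREB-binding protein, the coactivator that CREB recruits at activity-regulated genes. It was at 78.6, 80.1, 77.5, 75.6 and 77.9 CPM in untreated replicates 1 to 5 and at 76.2, 74.0, 80.8, 79.1 and 80.5 CPM in RG2833 replicates 1 to 5. The groups overlapped fully, and Crebbp varied least of all members, with a coefficient of variation of 2.90% over the 10 libraries. Its fold change was 1.00 (95% interval 0.932 to 1.08; edgeR adjusted p = 0.996), so a change beyond these bounds is outside the interval. Its expected counts were not whole in any library, as happens when RSEM divides reads between genes, so the level carries that uncertainty; the same holds for Kat6a in 10 libraries and Kat8 in 9.

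Kat2a encodes GCN5, the catalytic subunit of the SAGA and ATAC complexes. It was at 95.6, 91.8, 100.0, 86.1 and 101.2 CPM in untreated rats 1 to 5, then at 85.2, 88.7, 88.1, 83.5 and 76.5 CPM in RG2833 rats. The ranges overlapped only through untreated replicate 4, the lowest untreated rat, which lay below RG2833 replicates 2 and 3. The fold change was 0.889 (95% interval 0.806 to 0.979), a log2 fold change of -0.17 (SE 0.06), which did not pass over all genes (unadjusted p = 0.0219, edgeR adjusted p = 0.841; two-sided exact permutation p = 0.0238). Over the alternatives its log2 fold change ran from -0.20 to -0.13, and its unadjusted p stayed under 0.05 in 17 of 20.

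Kat7 encodes HBO1, which works with BRPF and JADE scaffolds. It was at 97.2, 93.8, 84.6, 85.3 and 90.7 CPM in untreated rats 1 to 5, then at 83.3, 88.2, 85.4, 81.0 and 77.0 CPM in RG2833 rats. The lower 2 untreated values fell among the RG2833 values. The fold change was 0.919 (95% interval 0.838 to 1.01; edgeR adjusted p = 0.841; exact permutation p = 0.0556). Kat8, the MOF acetyltransferase of histone H4, had a fold change of 0.914 (0.813 to 1.03), with 391.78 to 717.17 expected counts per library.

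Kat5, the TIP60 catalytic subunit of the NuA4 complex, was at 55.4, 49.1, 54.1, 54.4 and 56.5 CPM in untreated rats 1 to 5, then at 51.2, 50.8, 49.1, 58.3 and 59.0 CPM in RG2833 rats. The RG2833 values spread on both sides of the untreated ones. Its fold change was 0.996 (95% interval 0.895 to 1.11; edgeR adjusted p = 0.996). Kat6a, the MOZ acetyltransferase, had a fold change of 1.01 (0.908 to 1.13), and Hat1, which acetylates newly made histone H4 before assembly, one of 0.974 (0.872 to 1.09).

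The steroid receptor coactivators had the highest estimates of this role. Ncoa2 was at 56.3, 48.2, 45.8, 51.3 and 49.8 CPM in untreated rats 1 to 5, then at 54.2, 48.3, 52.9, 53.9 and 60.2 CPM in RG2833 rats, with overlapping groups. Its fold change was 1.07 (95% interval 0.957 to 1.199; edgeR adjusted p = 0.895; exact permutation p = 0.198). Ncoa1 had a fold change of 1.04 (0.905 to 1.201), and its lowest value, 146.1 CPM, was in untreated replicate 3, without which the log2 fold change was -0.012 in place of 0.06.

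**Figure D2:**
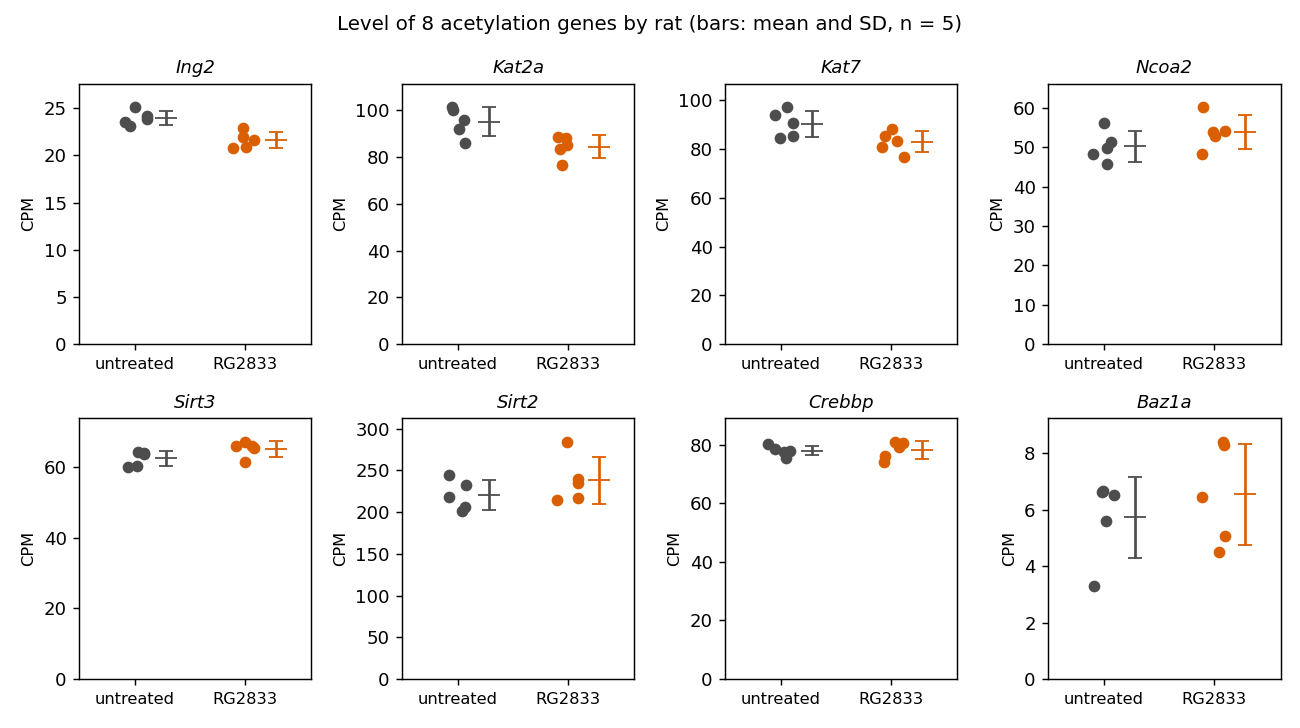
CPM (y axis, from 0) in each rat (points) for 8 members, untreated in grey and RG2833 in orange, with mean and SD beside them (n = 5 each). The groups separate for Ing2 alone, from 23.1 to 25.1 against 20.8 to 22.9 CPM, while Crebbp lies between 74.0 and 80.8 CPM in all 10 rats.

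Among the 15 bromodomain genes tested, 5 had higher and 10 lower means in RG2833 rats, and 0 had an unadjusted p under 0.05, with a median log2 fold change of -0.015. Brd2, a BET protein that holds acetylated histones at active promoters, was at 199.4, 195.7, 227.7, 192.4 and 195.5 CPM in untreated rats 1 to 5, then at 189.4, 199.4, 206.8, 214.4 and 213.4 CPM in RG2833 rats. The highest single value was in an untreated rat, and its fold change was 1.01 (95% interval 0.917 to 1.12; edgeR adjusted p = 0.988). Brd3, a second BET gene, had a fold change of 0.970 (0.879 to 1.07).

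None of the chromatin remodelling readers had an unadjusted p under 0.05. Baz1b, the WSTF subunit of the WICH complex, had a fold change of 1.00 (95% interval 0.924 to 1.09), Baz2b one of 0.990 (0.877 to 1.12), Baz2a of the nucleolar NoRC complex one of 0.939 (0.853 to 1.03), and Brd7 of the PBAF complex one of 0.997 (0.920 to 1.08). Brd9 of the non-canonical BAF complex had a fold change of 0.939 (0.816 to 1.08). Its highest value, 42.7 CPM, was in untreated replicate 3. Leaving out 1 library gave it a log2 fold change from -0.13 to -0.014, against -0.09 with all. Baz1a, the ACF1 subunit of ISWI remodellers, was the most variable member, with a coefficient of variation of 26.0% over the 10 libraries. It was at 3.29, 6.66, 6.51, 6.61 and 5.59 CPM in untreated rats 1 to 5, then at 6.45, 4.49, 5.05, 8.39 and 8.30 CPM in RG2833 rats. These values overlap. Its fold change of 1.14 was the highest estimate of all 33 members, and its interval, 0.796 to 1.63, was the widest. That place rested on single rats: its log2 fold change of 0.19 was 0.04 when untreated replicate 1 was left out, below that of Ncoa2 at 0.14. It was 0.08 and 0.09 when RG2833 replicate 4 or 5 was left out, and 0.30 when RG2833 replicate 2 was.

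Brd8, a subunit of the NuA4 complex that holds Kat5, was at 47.6, 55.3, 46.1, 48.9 and 53.3 CPM in untreated rats 1 to 5, then at 48.0, 43.3, 50.7, 39.6 and 44.1 CPM in RG2833 rats (fold change 0.898, 95% interval 0.795 to 1.01; edgeR adjusted p = 0.841; exact permutation p = 0.0794). Brpf1, a scaffold of the MOZ and HBO1 acetyltransferase complexes, had the lowest estimate of all members. It was at 47.8, 55.0, 32.7, 39.8 and 45.1 CPM in untreated rats 1 to 5, then at 40.7, 39.7, 41.4, 31.8 and 32.0 CPM in RG2833 rats. The untreated values alone cover a wider range than the difference between groups, and the fold change of 0.842 (95% interval 0.682 to 1.04) did not pass (edgeR adjusted p = 0.841; exact permutation p = 0.159). Without untreated replicate 3 its log2 fold change was -0.34 in place of -0.25, with an edgeR adjusted p of 0.311. When untreated replicate 2, the highest library, was left out it was -0.16. That is less negative than Sirt7 (-0.19) and Kat2a (-0.17) with all libraries, so the place of Brpf1 as lowest was not secure. Brd8 and Brpf1 were singled out after their values were seen.

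The paralog Brpf3 had a fold change of 1.01 (95% interval 0.806 to 1.28), and its other family member Brd1 one of 0.995 (0.878 to 1.13). Trim28, the KAP1 corepressor that silences transposable elements, had a fold change of 0.949 (0.843 to 1.07), Trim24 one of 0.959 (0.848 to 1.09), and Atad2b one of 1.02 (0.802 to 1.29) at 33 to 60 counts per library.

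Of the 6 sirtuins tested, 3 had higher and 3 lower means in RG2833 rats, and 0 had an unadjusted p under 0.05. Sirt2, a cytoplasmic tubulin deacetylase abundant in myelinating cells, was at 201.4, 205.7, 218.3, 232.4 and 245.0 CPM in untreated rats 1 to 5, then at 214.9, 235.4, 216.8, 239.1 and 283.9 CPM in RG2833 rats. The fold change was 1.08 (95% interval 0.941 to 1.24, edgeR adjusted p = 0.905, exact permutation p = 0.278). Leaving out 1 library gave a log2 fold change from 0.04 to 0.15, against 0.11 with all. Only RG2833 replicate 5 exceeded the untreated range. The 7 oligodendrocyte markers summed highest in that same library, at 15727 CPM, against 7133 to 13850 CPM in the other 9; the part of myelinating cells in the Sirt2 level was not tested.

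Sirt3, the main mitochondrial deacetylase, was at 64.3, 64.1, 60.4, 60.1 and 63.8 CPM in untreated rats 1 to 5, then at 61.4, 67.1, 66.1, 66.0 and 65.4 CPM in RG2833 rats. Of the RG2833 values 4 lay above the highest untreated one, and replicate 1 lay within the untreated range. The fold change was 1.04 (95% interval 0.968 to 1.12; edgeR adjusted p = 0.904; exact permutation p = 0.111). The other mitochondrial sirtuins, Sirt4 and Sirt5, had fold changes of 1.06 (0.792 to 1.43) and 0.944 (0.861 to 1.03); Sirt4 had 38 to 73 counts per library. The nuclear Sirt6 had a fold change of 0.977 (0.882 to 1.08). For the nucleolar Sirt7 it was 0.874 (0.719 to 1.06), with the lowest value, 10.2 CPM, in RG2833 replicate 5 and the highest, 18.5 CPM, in untreated replicate 5. Its log2 fold change of -0.19 was -0.098 when untreated replicate 5 was left out and -0.12 when RG2833 replicate 5 was.

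Ing2 encodes a reader of methylated histone H3 in the Sin3-HDAC complex, the complex that holds HDAC1. It was at 25.1, 24.2, 23.5, 23.8 and 23.1 CPM in untreated rats 1 to 5, then at 22.9, 21.6, 22.0, 20.9 and 20.8 CPM in RG2833 rats. The lowest untreated value, 23.1 CPM, lay above the highest RG2833 value, 22.9 CPM, so the groups did not overlap, which held for 1 of 33 members (3.03%) and for 1% of all genes tested. The fold change was 0.904 (95% interval 0.833 to 0.981), a log2 fold change of -0.15 (SE 0.05). It did not pass over all genes (unadjusted p = 0.0207, edgeR adjusted p = 0.841), and the exact permutation p of 0.00794 is the smallest that 5 against 5 rats can give. Over the alternatives the log2 fold change ran from -0.17 to -0.13, and the unadjusted p stayed under 0.05 in 16 of 20. Ing1, the paralog in the same complex, had a fold change of 1.07 (0.848 to 1.34), and Ing3 of the NuA4 complex one of 0.951 (0.806 to 1.12).

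Upstream sequence is shown for 4 members: Ing2 and Kat7, which were among the 3 lowest p-values with a lower mean, and Brd2 and Brpf1, whose levels went opposite ways across libraries with the rRNA share. Each is the 250 bases before the first start listed by RefSeq on GRCr8, 5′ to 3′ on the gene's strand; the deposited tables were made on another build. Capitals mark matches to TGACGTCA (the cAMP response element that CREB binds), CCGGAAGT (an ETS site), the NRF1 site, CACGTG (an E-box) or CCAAT (the CCAAT box), on either strand.
Ing2, chr16:51308042-51308291, plus strand: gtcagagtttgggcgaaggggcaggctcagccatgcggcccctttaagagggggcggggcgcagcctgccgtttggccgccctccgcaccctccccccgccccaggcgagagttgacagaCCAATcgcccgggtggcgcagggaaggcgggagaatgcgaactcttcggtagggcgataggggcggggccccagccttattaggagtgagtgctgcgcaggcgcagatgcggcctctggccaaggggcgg
Kat7, chr10:80752388-80752637, minus strand: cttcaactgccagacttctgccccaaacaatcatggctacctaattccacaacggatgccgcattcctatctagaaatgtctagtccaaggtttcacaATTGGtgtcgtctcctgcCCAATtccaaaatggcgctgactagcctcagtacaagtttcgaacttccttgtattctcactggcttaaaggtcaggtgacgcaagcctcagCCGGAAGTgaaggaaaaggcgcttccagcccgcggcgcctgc
Brd2, chr20:4729829-4730078, plus strand: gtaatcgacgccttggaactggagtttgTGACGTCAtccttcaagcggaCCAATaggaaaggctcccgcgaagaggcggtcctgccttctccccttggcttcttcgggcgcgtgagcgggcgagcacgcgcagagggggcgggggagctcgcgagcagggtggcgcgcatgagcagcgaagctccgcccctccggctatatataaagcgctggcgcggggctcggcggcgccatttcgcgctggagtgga
Brpf1, chr4:148011727-148011976, plus strand: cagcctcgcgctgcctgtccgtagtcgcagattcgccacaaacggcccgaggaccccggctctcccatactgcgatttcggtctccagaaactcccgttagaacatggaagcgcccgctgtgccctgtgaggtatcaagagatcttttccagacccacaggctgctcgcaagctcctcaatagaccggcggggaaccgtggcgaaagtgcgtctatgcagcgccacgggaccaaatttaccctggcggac

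Of the 39 listed genes, 32 have an entry in the RefSeq promoter table, and their 250-base windows were GC-rich, with a median GC content of 62.8% against 52% over 27455 genes. The 32 are not the set whose levels were tested. They include Ep300, Kat2b, Kat6b, Bptf and Sirt1, and lack Kat2a, Kat6a, Ncoa2, Brpf3, Baz1a and Sirt6. The cAMP response element was in 3 of the 32 windows (9.38%; Atad2b, Brd2 and Ing3) and in 1.7% of all windows. The ETS site was in 12.5% of the members' windows and 3.29% of all. The E-box was in 9.38% (Bptf, Kat5 and Sirt1) and 5.79%. The CCAAT box was in 46.9% and 34.3%, and the NRF1 site in 0 of 32 and 0.849%. A match describes letters in the window, not binding, and the higher GC content of the members' windows was not taken into account. Of the 3 genes whose window holds the cAMP response element, Brd2, Ing3 and Atad2b had fold changes of 1.01, 0.951 and 1.02, none of which passed.

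The partners of the members were followed in lists of 25 further readers, 52 acetyltransferase complex subunits, 21 genes of NAD supply and use, and 14 of acetyl-CoA supply. The subunit list also holds genes that are not such subunits, among them Creb1, Crtc1, Crtc2, Atat1 and Esco1. These lists were chosen with earlier results of these data known. At an adjusted p under 0.05, 0 of 19, 0 of 41, 0 of 16 and 0 of 13 tested genes passed. Their median log2 fold changes were -6.2e-05, -0.04, 0.03 and 0.00015. At an unadjusted p under 0.05 there were 0 readers (0%) and 2 complex subunits (4.88%), of which 1 was higher and 1 lower. There were 4 NAD genes (25%, 3 higher and 1 lower) and 1 acetyl-CoA gene (7.69%, higher), against 5.66% of all genes. Of these 7 genes, Nmnat3 and Nadk2 stayed under that p in all 20 alternatives and Mrgbp and Nmnat1 in 19, but Nadk in 15, Jade2 in 11 and Crat in 10.

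Among the NAD genes, Nmnat3, which makes NAD in mitochondria, was at 6.17, 7.22, 6.51, 6.43 and 5.75 CPM in untreated rats 1 to 5, then at 9.16, 7.84, 7.68, 7.64 and 7.95 CPM in RG2833 rats. The groups did not overlap, which held for 1 of 16 NAD genes tested (6.25%) and for 1% of all genes. The fold change was 1.25 (95% interval 1.09 to 1.45, edgeR unadjusted p = 0.00551, edgeR adjusted p = 0.841). The exact permutation p was 0.00794, the smallest that 5 against 5 rats can give. Nadk2, the mitochondrial NAD kinase, had the largest estimate of the list, with group means of 103.7 ± 15.5 CPM in the untreated and 133.0 ± 18.9 CPM in RG2833 rats (SD, n = 5 each). Its fold change was 1.28 (1.06 to 1.55; edgeR adjusted p = 0.841). The cytosolic kinase Nadk had a fold change of 1.11 (1.01 to 1.21), and the nuclear NAD synthase Nmnat1 one of 0.872 (0.784 to 0.971), with counts that were not whole in all 10 libraries. None of the 4 passed over all genes. The 6 astrocyte markers tested summed to 4480 to 6093 CPM in the untreated and 4924 to 6804 CPM in RG2833 rats, and their part in these values was not tested.

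In the other lists, Mrgbp of the NuA4 complex had a fold change of 0.868 (95% interval 0.777 to 0.971), Jade2, a scaffold of HBO1, one of 1.15 (1.00 to 1.32), and Crat, which moves acetyl groups between CoA and carnitine, one of 1.11 (1.01 to 1.23). Dmap1 of the NuA4 complex did not overlap between groups, which held for 1 of 41 tested genes of its list (2.44%) and for 1% of all genes. Its means were 26.4 ± 0.97 and 24.7 ± 0.44 CPM (SD, n = 5 each), with a fold change of 0.933 (0.864 to 1.01). Atad2, a bromodomain ATPase, had the smallest p of the reader list, with a fold change of 0.836. The edgeR adjusted p was 0.841 for all 5.

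Across rats, members moved in opposite directions irrespective of group. Brpf1 was lowest in RG2833 replicate 4 (31.8 CPM), RG2833 replicate 5 (32.0 CPM) and untreated replicate 3 (32.7 CPM). Brpf3 was highest in the same 3 libraries, at 30.3, 36.9 and 37.4 CPM, against 23.5 to 28.8 CPM in the other 7. Ing1 was also highest there, at 32.0, 33.8 and 31.0 CPM, against 21.6 to 28.04 CPM, while Ing3 was lowest, at 13.1, 12.9 and 12.5 CPM, against 15.1 to 17.8 CPM. These pairs were chosen after the values were seen, and related genes did not in general part in this way. Brd1, also of the BRPF family, was lowest in the same 3 libraries, at 53.1, 54.7 and 51.6 CPM. The BET gene Brd2 was highest there, and its relative Brd3 was not low, at 35.1, 36.2 and 37.0 CPM against 30.7 to 36.6 CPM in the other 7. The 3 libraries come from both groups and have the highest rRNA shares, 9.37%, 8.92% and 11.41%. RG2833 replicate 3, next at 8.71%, did not share the pattern. There Brpf1 was at 41.4, Brpf3 at 27.6, Ing1 at 21.7 and Ing3 at 16.3 CPM.

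**Figure D3:**
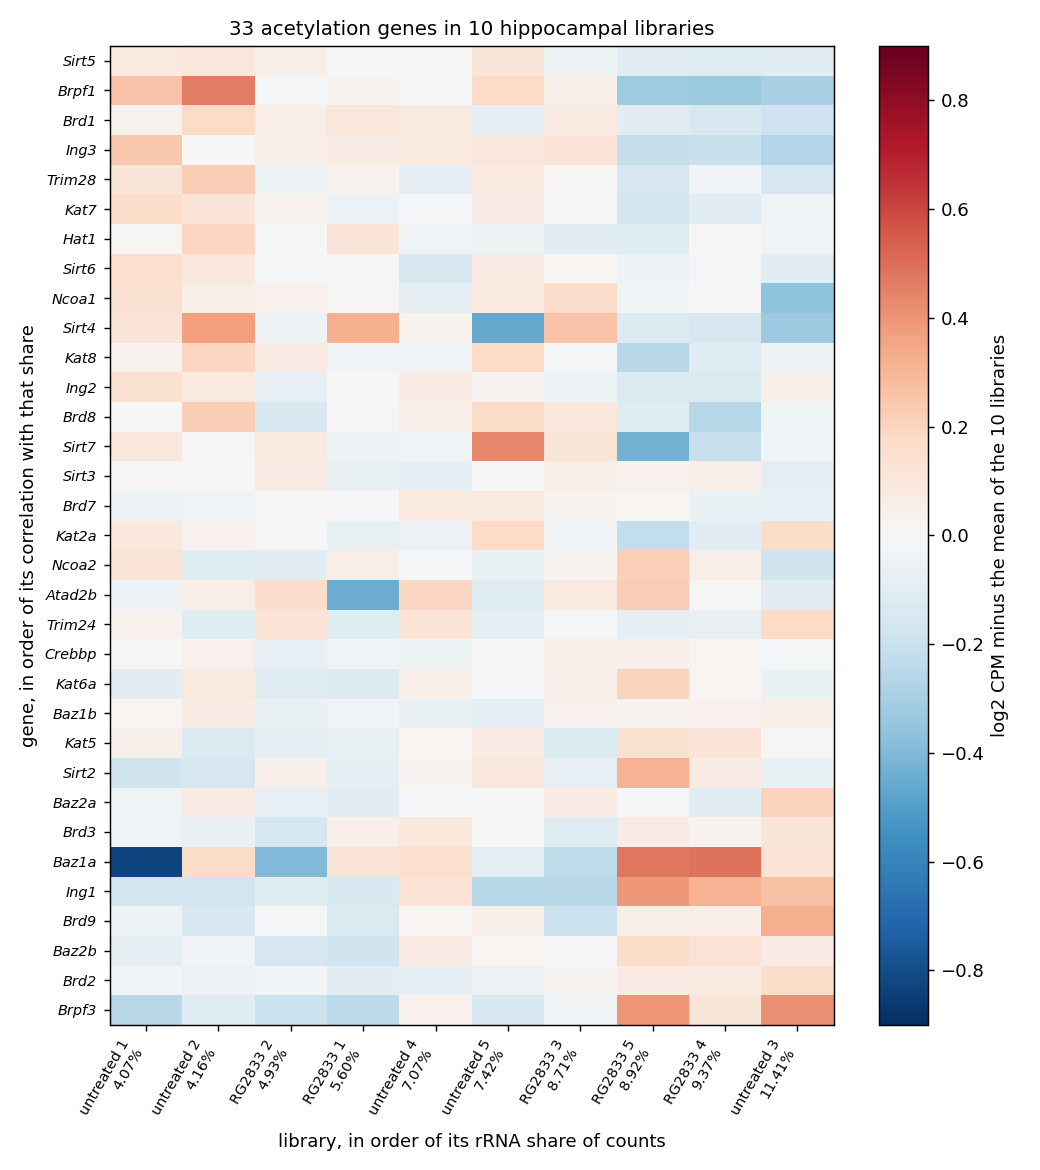
Deviation of each member's log2 CPM from its mean over the 10 libraries (colour; red higher, blue lower), with libraries (x axis) ordered by rRNA share of counts and genes (y axis) by their correlation with it. The 3 libraries at the right, with shares of 8.92% to 11.41%, show Brpf1 and Ing3 low and Brpf3 and Ing1 high. RG2833 replicate 3, next to them at 8.71%, does not.

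The level of each of the 33 members was compared with the rRNA share over the 10 libraries, a relation chosen after the values were seen. After Benjamini-Hochberg adjustment over 33 genes, 4 passed by Pearson's r and 0 by Spearman's rho. An absolute r at least as large as the smallest of the 4, 0.798, was found for 4 of 33 members (12.1%) and for 7.98% of all genes, so the relation was not shown to be particular to these genes. Brpf3 had r = 0.843 (two-sided permutation p = 0.00164, adjusted p = 0.0481) and rho = 0.855 (permutation p = 0.00312, adjusted p = 0.103). Brd2 had r = 0.808 (permutation p = 0.00466, adjusted p = 0.0481) and rho = 0.636 (permutation p = 0.0544, adjusted p = 0.150). Sirt5 and Brpf1 went the other way: Sirt5 had r = -0.831 (permutation p = 0.00446, adjusted p = 0.0481) and rho = -0.782 (permutation p = 0.0106, adjusted p = 0.129). Brpf1 had r = -0.798 (permutation p = 0.00583, adjusted p = 0.0481) and rho = -0.733 (permutation p = 0.0204, adjusted p = 0.129).

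Without the 2 libraries farthest from the median share, r was 0.704 for Brpf3, 0.743 for Brd2, -0.774 for Sirt5 and -0.734 for Brpf1 (exact permutation p = 0.0418, 0.0416, 0.0291 and 0.0356, unadjusted). With the group means removed it was 0.846, 0.805, -0.883 and -0.840. The adjusted calls were fragile: with untreated replicate 1, 2, 3 or 4, or RG2833 replicate 1, 2 or 4, left out, 0 of 33 passed. Leaving out RG2833 replicate 5 gave 1, untreated replicate 5 gave 3 and RG2833 replicate 3 gave 8. The sign of r for these 4 genes held in each of these 10 sets. Such relations were common in the whole table: the absolute r exceeded 0.6 for 14 of 33 members (42.4%) and for 38.7% of 12159 genes tested, the rRNA genes left out.

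**Figure D4:**
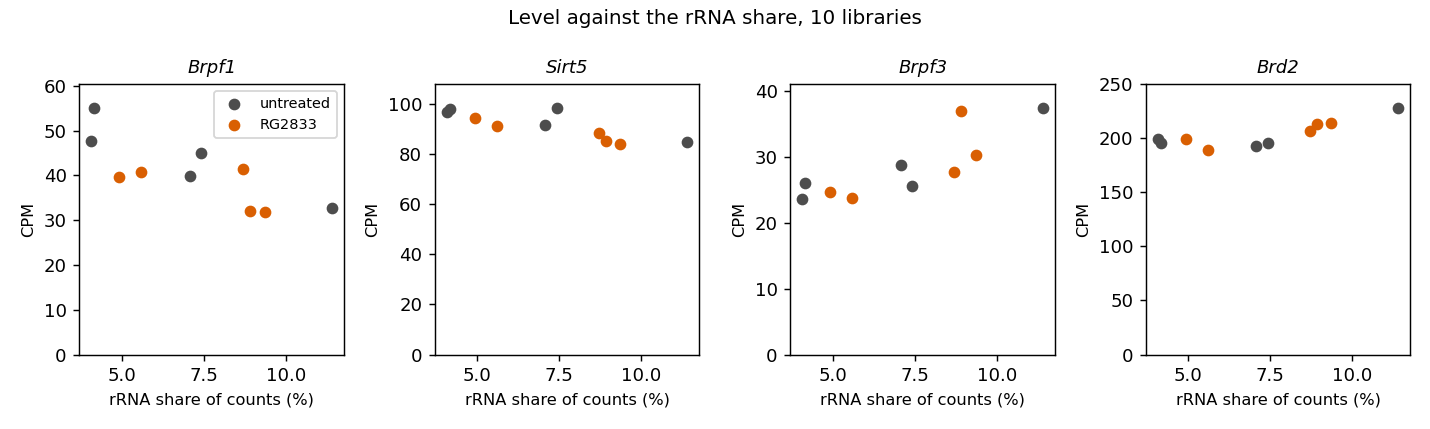
CPM (y axis, from 0) against the rRNA share of counts (x axis, percent) in the 10 libraries for Brpf1, Sirt5, Brpf3 and Brd2, untreated in grey and RG2833 in orange. Brpf1 and Sirt5 are lower and Brpf3 and Brd2 higher at larger shares, in both groups.

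Markers of cell types moved with these libraries as well. The 6 neuronal markers, all of which passed the filter, deviated on average by -0.32, -0.18 and -0.27 on the log2 scale from their 10-library mean in untreated replicate 3 and RG2833 replicates 4 and 5, where the other 7 libraries lay from -0.09 to 0.34. The 5 endothelial markers deviated by 0.51, 0.33 and 0.58, against -0.47 to 0.02. Microglial markers stood at 0.64, 0.23 and 0.27, against -0.31 to 0.04, and astrocyte markers at 0.21, 0.35 and 0.30, against -0.39 to 0.16. Those lists were thus higher in these 3 libraries than in each of the others, and markers of CA3 and CA2 pyramidal cells were lower, at -0.48, -0.31 and -0.48, against 0.10 to 0.31. Striatal markers were at 0.37, 0.19 and 0.42, against -0.46 to 0.18, and thalamic markers, at 0.51, 0.17 and 0.45, overlapped with -0.43 to 0.24. Dentate granule markers were at -1.80, -0.21 and -0.29, against -0.08 to 0.67, with the lowest value in untreated replicate 3. CA1 markers did not separate these libraries, at -0.33, -0.16 and 0.10, against -0.62 to 0.72, nor did oligodendrocyte markers, at -0.44, -0.08 and 0.44, against -0.29 to 0.39. Summed neuronal markers ran from 3024 to 5268 CPM in the untreated and 3376 to 4912 CPM in RG2833 rats, and endothelial ones from 196.8 to 378.0 and 230.5 to 414.3 CPM; no marker of either list was at 0 throughout. RG2833 replicate 3, whose rRNA share of 8.71% was the next highest, deviated by 0.17 for neuronal and -0.21 for endothelial markers. Its microglial markers stood at -0.23 and its astrocyte markers at 0.16. The parts of rRNA share and cell makeup in the members' levels were not tested apart from each other.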

How the data were processed

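Left hippocampi of 5 untreated and 5 RG2833-fed rats were sequenced from stranded mRNA libraries, per the labels' protocols. The submitters' processing notes name bcl2fastq 2.17, Bowtie2 2.1.0, RSEM 1.2.15, edgeR and build rn6, without their roles; annotation and filters are not given in the sources used here. The authors deposited expected counts by gene from RSEM (11.6% of values were not whole), and a TMM-normalized CPM signal. The deposited CPM signal held whole steps for 100% of values above 0 (tolerance 0.02), and all recovered reads lay within 0.5 of the expected count.

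Expected counts were rounded and analysed in edgeR 4.0.16 (R 4.3.3): filterByExpr (minimum count 10, minimum total count 15; 12161 of 17168 genes kept), TMM scaling, robust quasi-likelihood F test, Benjamini-Hochberg adjustment over all genes tested, threshold 0.05. Values for each rat are CPM after TMM scaling, and a prior count of 2 entered their log2. Standard errors and 95% intervals come from the F statistic. For single genes, exact permutation p-values (two-sided) covered all 252 regroupings. Permutation tests with 10 libraries used 100000 permutations. Alternatives used DESeq2 1.42.0, limma 3.58.1 (log2 of CPM + 1) and sva 3.50.0. The script was tested on simulated data. All 45 pairs of libraries differed beyond sampling noise. The p-values for RG2833 judge a group difference against the spread between these rats. Those for the rRNA share judge a correlation across these libraries.

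The members and the lists of partners and markers were chosen with earlier results of these data known. The rule for genes given in full took the 3 members with the smallest p in each direction, members at an unadjusted p under 0.05 or without overlap, the most and least variable members, and 6 genes in any case, of which Ep300 and Sirt1 were not analysed here. Partners were named at an unadjusted p under 0.05, or else by the smallest p of their list; Dmap1 was added for its separation between groups. A comparison of levels between genes per coding length was planned and not made, since coding lengths were not used here. Promoter sequences are RefSeq's, on GRCr8.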

Additional observations from a re-analysis of the deposited data

Results flagged for a closer look

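Within each group of 5 rats, the log2 CPM of each member was examined for a value whose gap to its nearest neighbour exceeded 0.71 of the range. Of 66 sets, 6 met this (9.09%), where chance gives about 3.3 (1 in 20). Over all 12161 genes tested the share was 7.88%. Brd2 was high in untreated replicate 3, at 227.7 CPM against 192.4 to 199.4 CPM, a gap of 0.788 of the range. Baz1a was low in untreated replicate 1, at 3.29 CPM against 5.59 to 6.66 CPM (0.751). Hat1 was high in untreated replicate 2, at 21.2 CPM against 17.9 to 18.7 CPM (0.747). Brd7 was low in RG2833 replicate 4, at 56.1 CPM against 58.7 to 59.6 CPM (0.735). Sirt3 was low in RG2833 replicate 1, at 61.4 CPM against 65.4 to 67.1 CPM (0.714). Sirt7 was high in untreated replicate 5, at 18.5 CPM against 13.4 to 14.7 CPM (0.712).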

How the results depend on the processing

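The comparison of RG2833 with untreated rats was refitted under 20 alternatives. No member passed at an adjusted p under 0.05 in any of them, and of 660 refitted member values 612 kept their direction; 19 of 33 members kept it throughout, among them Ing2, Kat2a, Kat7, Brpf1, Sirt2 and Sirt3. Over all genes, 7 passed in DESeq2 and 118 with 2 surrogate variables, against 0. Genes at an unadjusted p under 0.05 numbered 401 with the replicate block and 1951 with 2 surrogate variables, against 688, and 375 to 1732 leaving out 1 library, the ends being without RG2833 replicate 4 and without untreated replicate 3. For members it was 4 with upper-quartile factors (Kat7 and Brd8 added), 0 with the replicate block and 5 with 2 surrogate variables (Brpf1, Kat7 and Brd9 added), against 2, where the shares of all genes were 5.42%, 3.3% and 16%, and 0 to 5 leaving out 1 library. Members passing for the rRNA share numbered 2 with RLE size factors, 2 with upper-quartile factors, 1 with the deposited CPM, 0 without the pair of libraries richest in choroid plexus RNA and 0 with 28S rRNA left out of the share, against 4, and 0 to 8 leaving out 1 library. DESeq2, other filters on low counts, the replicate block and surrogate variables were not run for the rRNA share. The cause of these moves was not tested.

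Log2 fold changes near 0 changed sign. With upper-quartile factors they were -0.0031 for Crebbp and -0.0043 for Baz1b. On the deposited CPM they were 0.0014 for Kat5, 0.0054 for Brd1 and 0.0066 for Brd7. With 2 surrogate variables they were 0.025 for Brd1, -0.018 for Brpf3 and -0.014 for Atad2b, and without the choroid plexus pair 0.0063 for Brd1 and 0.0091 for Baz2b. Leaving out 1 library gave -0.0093 to 0.022 for Crebbp, -0.040 to 0.025 for Kat5, -0.030 to 0.051 for Kat6a, -0.074 to 0.0089 for Hat1, -0.012 to 0.10 for Ncoa1, -0.051 to 0.039 for Brd1, -0.023 to 0.018 for Brd7, -0.086 to 0.14 for Brpf3, -0.017 to 0.020 for Baz1b, -0.058 to 0.026 for Baz2b, -0.031 to 0.12 for Atad2b, -0.0028 to 0.21 for Sirt4, -0.071 to 0.00078 for Sirt6 and -0.0016 to 0.17 for Ing1. The replicate numbers are shared between groups, but same-numbered libraries did not deviate together (correlations from -0.49 to -0.03), and no library's best match was its own number. The lowest counts per library among members were those of Atad2b, 33 to 60, and Sirt4, 38 to 73.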
